A study of Rattus norvegicus with 156 samples.

Results

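The genes described here are 8 of the cellular stress response, made up of 7 heat shock proteins (Hspb1, Cryab, Hspa1b, Hspa5, Hspa8, Hspd1 and Hspe1) and the inducible heme oxygenase Hmox1. They were taken by symbol from the annotation of 3 rat arrays, on which 10969 genes were named. All 8 had at least 1 probe set, 22 in all, each of them on array A. Of these, 15 carried 1 symbol and 7 carried a second one. Both probe sets of Hspa8 also named Haus8l2, and all 4 of Hspa1b also named Hspa1a, its near-identical neighbour, so the genes of each pair could not be told apart and are written Hspa8/Haus8l2 and Hspa1b/Hspa1a. One of the 5 Hspb1 probe sets, number 5, also named Asb2. For each gene the brightest probe set on average is called probe set 1 and stands for the gene, and the others are numbered downward. Signals of different probe sets share no scale, so levels are compared between tissues and treatments but not between genes.

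The study asked which transcripts change in a rat model of neuropathic pain and under a drug that relieves it. In spinal nerve ligation (SNL) the L5 and L6 spinal nerves are tied. The dorsal root ganglia (DRG) L5 and L6 hold the cell bodies of the sensory neurons whose axons run in the tied nerves, the L4 ganglion is spared, and the mid-thigh sciatic nerve holds injured and spared fibres together. RNA came from 52 pools, each hybridised to 3 arrays. A pool held 4 to 6 rats of 1 treatment and 1 tissue.

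The ligated pools were SNL with vehicle (SNL) and SNL with gabapentin (SNL+GPN). The unligated pools were unoperated rats with vehicle (Naive), unoperated rats with gabapentin (Naive+GPN) and rats whose spinal nerves were exposed but not tied (Sham, with vehicle). All rats received daily intraperitoneal injections for 7 days, of saline or of gabapentin at 100 mg/kg, and tissue was taken 19 to 21 days after surgery. Of the SNL rats, those with a lowered paw withdrawal threshold on the side of the ligation at 12 to 14 days were kept, so the ligated pools are a selected group. The sources used here give neither strain nor age. Each treatment had 1 pool in each of up to 11 compartments (a tissue and side). Ligated were therefore compared with unligated pools, 2 against 3, and n counts pools throughout. SNL sciatic nerve, Naive+GPN L5 DRG and Naive L6 DRG, all of the contralateral side, were not analysed here.

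Heat shock proteins are chaperones: they bind proteins that are unfolded or being made and keep them from clumping. The small members Hspb1 (HSP27) and Cryab (alpha B-crystallin) hold unfolded proteins without using ATP, the HSP70 members Hspa1b, Hspa8 and Hspa5 fold them with ATP, and Hspd1 (HSP60) with its lid Hspe1 (HSP10) forms the folding chamber of mitochondria. Many of them are switched on by heat shock factor 1, which binds inverted GAA repeats called heat shock elements. Hspb1 is known in sensory and motor neurons as a protein induced by axotomy that favours neuron survival, and Cryab is abundant in myelinating glia and in muscle.

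Arrays differed in brightness, with medians from 13 to 62.2 on array A as deposited, and were therefore quantile normalised within each compartment (ligation) or over all 52 pools (tissues). The defining markers of the labelled tissues were present, with 15 neuron markers at a mean log2 value of 9.71 to 10.36 in ipsilateral L5 DRG and 5.11 to 5.54 in ipsilateral sciatic nerve. The nerve pools also carried skeletal muscle and fat markers, given beside the results they touch. The ratio of 3' to 5' signal of the Gapdh control probe sets, which rises as RNA degrades, was 7.38 in the Naive ipsilateral nerve and at most 3.80 in every other pool. In bulk samples of this kind, fewer cells of a type and less RNA per cell cannot be told apart.

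Promoter sequence was available for 5 of the 8 genes (RefSeq, GRCr8, 250 bases before to 50 after the gene start, except for Hspd1 as given below). The windows were searched for the element of heat shock factor 1 and for 2 other elements. A link of these elements to the changes described below was not tested. The search covered both strands for a pair of inverted GAA units (GAANNTTC or TTCNNGAA), for 3 units (GAANNTTCNNGAA or TTCNNGAANNTTC, each of which holds 2 overlapping pairs), for the endoplasmic reticulum stress element (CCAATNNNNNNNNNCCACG) and for the core of the antioxidant response element (TGACNNNGC). Among 33469 rat promoter windows of the same length, 15.9% held a pair, 0.798% held 3 units, 0.0657% held the endoplasmic reticulum stress element and 12.1% held the antioxidant core. In the 4 windows printed below, capitals mark matches to the heat shock pair or triple, or in Hspa5 to the endoplasmic reticulum stress element.
Hspb1, chr12:26432252-26432551, minus strand: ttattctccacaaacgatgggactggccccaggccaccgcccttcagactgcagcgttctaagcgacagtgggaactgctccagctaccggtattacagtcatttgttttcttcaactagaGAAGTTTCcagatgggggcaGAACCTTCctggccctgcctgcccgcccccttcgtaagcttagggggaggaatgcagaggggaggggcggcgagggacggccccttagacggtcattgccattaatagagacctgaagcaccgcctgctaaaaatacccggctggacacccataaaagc
Hspa8, chr8:50080264-50080563, plus strand: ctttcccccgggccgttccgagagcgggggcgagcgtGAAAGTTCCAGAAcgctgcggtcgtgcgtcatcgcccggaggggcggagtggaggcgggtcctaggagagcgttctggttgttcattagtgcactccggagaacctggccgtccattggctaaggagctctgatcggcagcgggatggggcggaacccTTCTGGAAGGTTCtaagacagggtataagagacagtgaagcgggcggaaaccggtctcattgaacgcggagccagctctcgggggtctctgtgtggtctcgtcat
Hspd1, chr9:64083988-64084287, minus strand: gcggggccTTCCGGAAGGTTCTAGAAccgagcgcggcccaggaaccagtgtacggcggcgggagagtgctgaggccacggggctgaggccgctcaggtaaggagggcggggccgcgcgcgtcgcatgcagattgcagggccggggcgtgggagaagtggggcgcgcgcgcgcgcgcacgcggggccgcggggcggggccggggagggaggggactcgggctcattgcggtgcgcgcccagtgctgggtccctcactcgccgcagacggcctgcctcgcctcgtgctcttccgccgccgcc
Hspa5, chr3:38452766-38453065, plus strand: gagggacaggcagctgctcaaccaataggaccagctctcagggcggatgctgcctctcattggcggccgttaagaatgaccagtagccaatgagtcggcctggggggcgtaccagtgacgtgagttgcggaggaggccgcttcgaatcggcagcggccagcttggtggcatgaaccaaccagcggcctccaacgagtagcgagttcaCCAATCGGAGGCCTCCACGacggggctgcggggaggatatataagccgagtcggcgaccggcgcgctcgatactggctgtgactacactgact

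Hspb1 held 2 separate pairs, whose first bases lay 129 and 109 bases before the gene start, and no run of 3 units. Hspa8 held 2 runs of 3 units, starting 213 and 55 bases before the start. Hspd1 held a longer run of inverted units, starting 242 bases before the start used for its window. That window lies wholly inside the gene as annotated (chr9:64073610-64084332), so the run is not upstream of the annotated Hspd1 start. Hspe1 lies head to head with Hspd1. Its window (chr9:64084077-64084376, plus strand) shares 211 bases with that of Hspd1 and contains the same run of units, there starting 65 bases before the Hspe1 start. Hspa5 held the endoplasmic reticulum stress element 43 bases before its start and no heat shock pair. These are matches of letters and no measurement of binding. The window of Hspa1a, which shares the Hspa1b probe sets, held 0 matches to any of the motifs searched, which says only that these letters are not in that window.

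Among unligated pools, the tissues differed most in the small heat shock proteins. In unligated pools Hspb1 was highest in DRG, with signals of 1127 to 1961 (median 1533) in 16 DRG pools, 366 to 637 in 6 sciatic nerve pools, 322 to 434 in 6 spinal cord pools and 40.1 to 69.6 in 3 brain pools. The DRG range lay above all the others, nerve and cord overlapped, and brain was lowest. Hspb1 was lower in sciatic nerve than in DRG by a log2 difference of -1.62 (SE 0.18, limma adjusted p = 4.5e-06, 3 treatment means a tissue), lower in spinal cord than in DRG by -1.98 (adjusted p = 1.7e-06) and lower in brain than in cord by -2.61 (adjusted p = 2.3e-07). These are values of probe set 1. Means of unligated ipsilateral L5 DRG, nerve and cord and of brain were 1196, 319, 285 and 162 in probe set 2. In probe set 3 they were 742, 176, 152 and 59.7. Probe set 4 had 130, 183, 179 and 146. Probe set 5, which also named Asb2, had 22.4, 68.8, 47.7 and 36.1. In probe sets 4 and 5 the L5 DRG was thus the lowest of these.

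Cryab was instead highest in nerve. Its signal was 1978 to 2723 in unligated sciatic nerve pools, 287 to 1062 in DRG, 559 to 875 in spinal cord and 133 to 169 in brain. Nerve lay above every other pool, DRG and cord overlapped, and brain was lowest. The nerve exceeded DRG by 2.04 on the log2 scale, 4.10-fold (SE 0.13, limma adjusted p = 2.4e-08), and brain lay below cord by -2.23 (adjusted p = 5.8e-08), while cord against DRG did not pass (0.32, adjusted p = 0.0919) unless treatment was fitted as a block (adjusted p = 0.0311). Probe set 2 of Cryab gave 2.12 for nerve against DRG. Other measures differed in the nerve pools too. The mean log2 value of the skeletal muscle markers was 7.24 to 9.30 in unligated nerve and 4.59 to 7.14 in DRG, and that of the fat markers was 7.90 to 8.74 in nerve and 4.45 to 5.36 in DRG. The Gapdh 3' to 5' ratio was 1.60 to 7.38 in nerve and 1.13 to 3.16 in DRG (medians 3.05 and 1.27). The part of these in any difference between nerve and DRG described here was not tested.

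Among the HSP70 members, Hspa1b/Hspa1a, the stress-inducible cytosolic form, had signals of 163 to 549 in unligated nerve, 121 to 184 in DRG, 87.5 to 123 in cord and 76.2 to 110 in brain. It was higher in nerve than in DRG (1.05, limma adjusted p = 3.1e-04), although its dim probe sets 2 and 3 gave 0.01 and -0.35 and did not pass. In cord against DRG it did not pass (-0.40, adjusted p = 0.128), except with treatment as a block (adjusted p = 0.0331) and without the Sham treatment (adjusted p = 0.0486). Hspa8/Haus8l2, the constitutive cytosolic form, was the reverse: 1268 to 1695 in nerve against 2870 to 3582 in DRG (-1.11, adjusted p = 4.4e-07), with 2331 to 2760 in cord and 3023 to 3208 in brain. It was also lower in cord than in DRG (-0.35, adjusted p = 0.0147) and higher in brain than in cord (0.32, adjusted p = 0.0290), and both of these small differences were lost without the Naive treatment, without Naive+GPN and under both other scalings.

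Hspa5 (BiP), the HSP70 of the endoplasmic reticulum, stayed between 258 and 548 in all unligated pools and passed no tissue test. Nerve against DRG (0.36, adjusted p = 0.0597) passed with treatment as a block (adjusted p = 0.0062), with arrays divided by their medians (0.65, adjusted p = 0.0158) and without the Naive treatment (0.45, adjusted p = 0.0375). Hspe1 stayed between 345 and 619 and passed none either, although nerve against DRG (-0.21) passed with the arrays as deposited (-0.67, adjusted p = 0.0044). Hspd1 was lower in nerve (281 to 648) than in DRG (510 to 787), by -0.43 (limma adjusted p = 0.0197), with overlapping single pools. This call was lost with arrays divided by their medians (-0.16, adjusted p = 0.535), without the Naive treatment (-0.42, adjusted p = 0.114) and without Naive+GPN (-0.30, adjusted p = 0.184). Hmox1, which breaks haem down to biliverdin, iron and carbon monoxide, was dim: 97.3 to 116 in nerve, 36.9 to 84.0 in DRG, 53.0 to 77.4 in cord and 33.3 to 42.1 in brain. It was higher in nerve than in DRG (0.54, adjusted p = 0.0029) and lower in brain than in cord (-0.62, adjusted p = 0.0030). The nerve difference of Hmox1 fell to 0.02 with the arrays as deposited, where the median of all probe sets shifted by -0.50.

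In all, 6 of the 8 genes differed between nerve and DRG, 3 in each direction, where 47.8% of 20160 probe sets did (25.1% higher and 22.7% lower). For cord against DRG it was 2 genes, both lower, where 26.9% of probe sets were called (13% higher and 13.9% lower), and for brain against cord 4 genes, 1 higher and 3 lower, where 20.3% were called (9.85% higher and 10.5% lower). The 3 treatment means of the tissues did not overlap for 7, 5 and 5 of the 8 genes in these comparisons, where 60.8%, 48.3% and 33.1% of probe sets did not. The count for cord is close to its background.

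**Figure D1:**
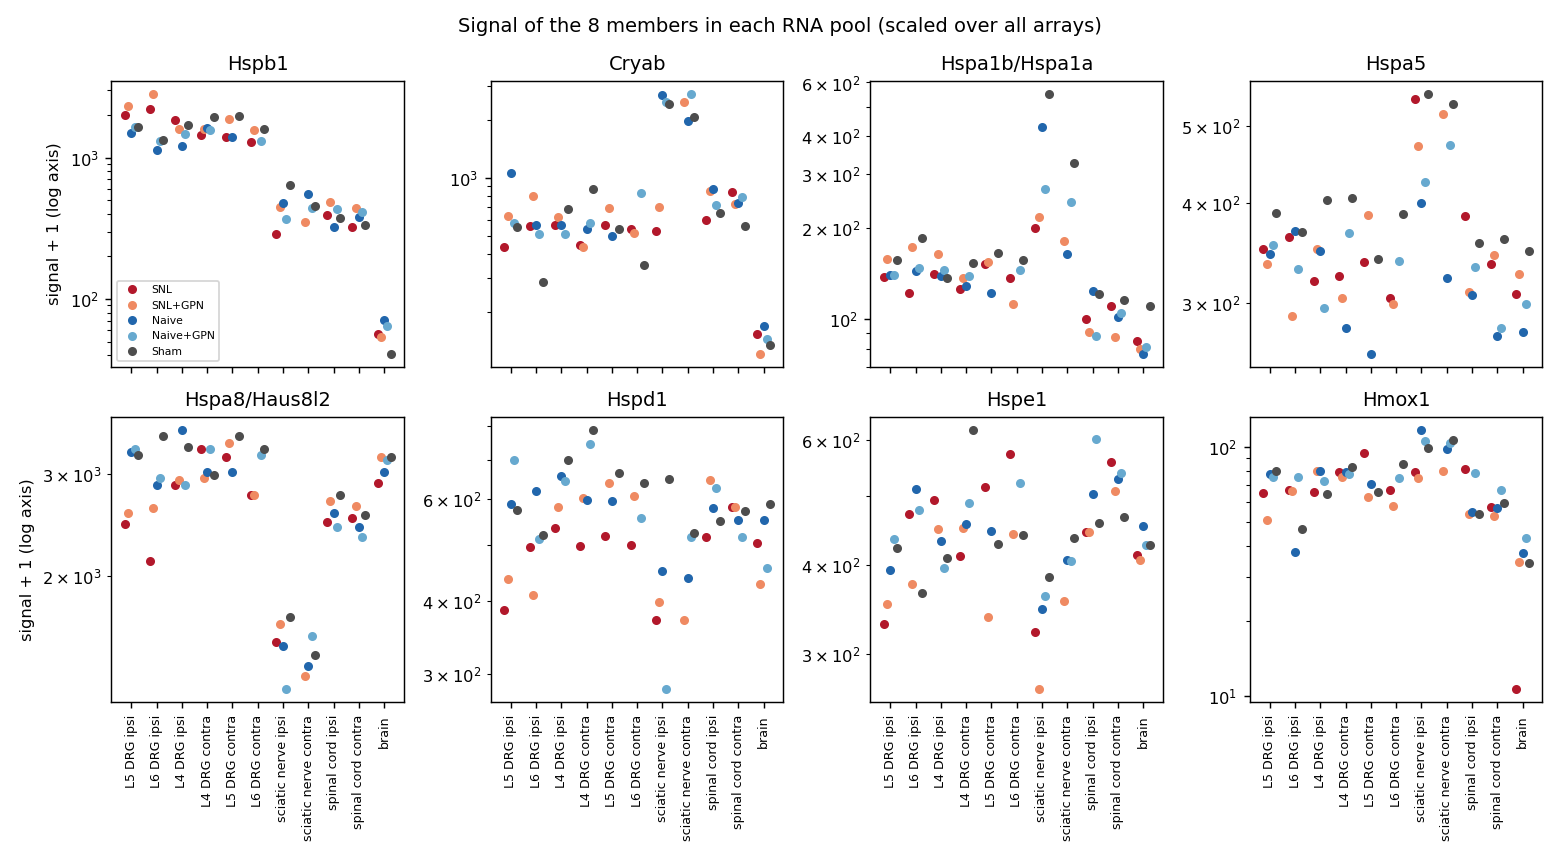
Signal of probe set 1 of each gene in all 52 pools, scaled over all arrays, plus 1, on a log axis of its own for each gene. Each point is 1 RNA pool, coloured by treatment, with ligated pools (SNL, SNL+GPN) left of unligated ones in each compartment. Hspb1 is highest in the DRG and Cryab in the sciatic nerve, except in the 2 ipsilateral ligated nerve pools, and both are lowest in brain.

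The change with ligation was tested in 10 compartments. The 8 genes gave 5 calls: Hspb1 higher in the ipsilateral L5 and L6 DRG, Hspa8/Haus8l2 and Hspd1 lower in the L5 DRG, and Cryab lower in the ipsilateral sciatic nerve. Hspa1b/Hspa1a, Hspa5, Hspe1 and Hmox1 passed in none of the 10.

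Cryab fell most in size. In the ipsilateral sciatic nerve its signal was 436 and 606 in the SNL and SNL+GPN pools, against 2448, 2276 and 2234 in the Naive, Naive+GPN and Sham pools. Both ligated pools lay far below all 3 unligated ones. The log2 change was -2.16 (SE 0.19, limma adjusted p = 0.0028), which is 4.47-fold lower on the scale of log2 signal plus a pseudocount of 5.8. Probe set 2 gave 506 and 559 in ligated against 1870, 2308 and 1597 in unligated pools, a change of -1.83 (adjusted p = 0.0045).

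In the contralateral sciatic nerve the SNL+GPN pool held Cryab at 2601, against 2181, 2799 and 2232 in the Naive, Naive+GPN and Sham pools. This single ligated pool lay inside the unligated range and gives no test. Cryab changes elsewhere were smaller and did not pass: -0.41 in the L5 DRG (adjusted p = 0.375), 0.61 in the L6 DRG (adjusted p = 0.266), 0.02 in the L4 DRG (adjusted p = 0.967) and -0.05 in the ipsilateral cord. The change in nerve minus that in L5 DRG was -1.75 (SE 0.34) and missed the threshold (limma adjusted p = 0.0557). It passed with a pseudocount of 32 (adjusted p = 0.0107) and without the Naive pool (adjusted p = 0.0495).

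**Figure D2:**
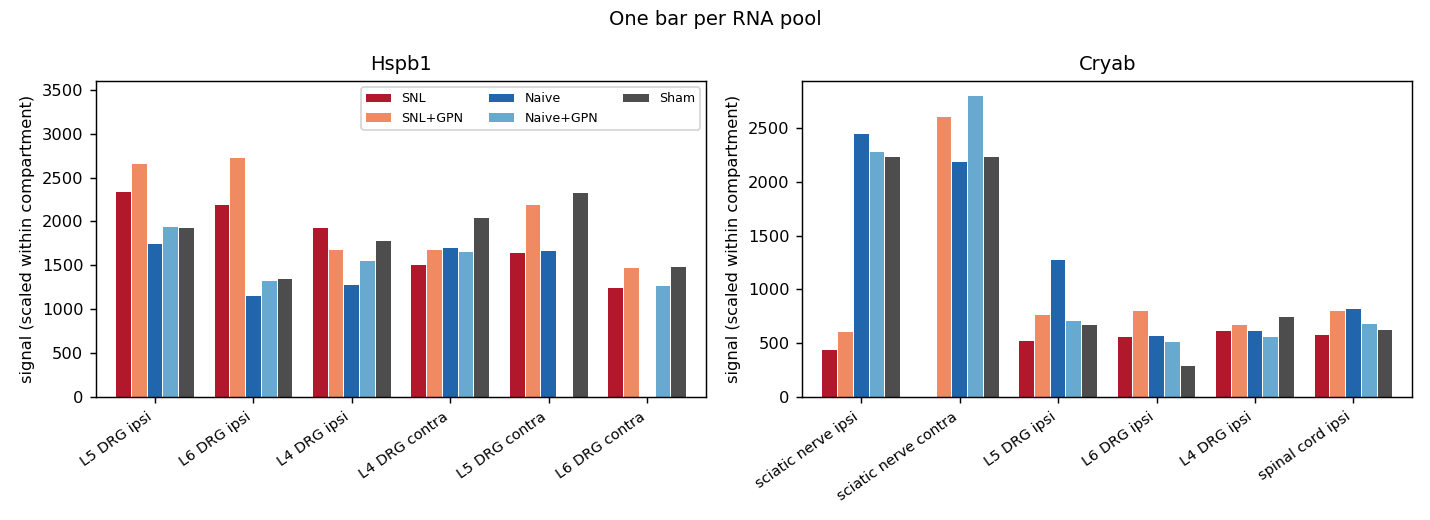
Signal of Hspb1 in the 6 DRG compartments (left) and of Cryab in 6 compartments (right), scaled within each compartment, with 1 bar for each RNA pool and ligated pools to the left of unligated ones. Hspb1 reaches 2186 and 2728 in ligated ipsilateral L6 DRG pools, against at most 1346 in unligated ipsilateral ones. Cryab is 436 and 606 in ligated ipsilateral nerve, against at least 2234 in unligated ipsilateral nerve.

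Muscle, fat and Schwann cell markers moved in the same nerve pools. The 27 skeletal muscle markers on the arrays had a mean log2 value of 5.01 and 7.18 in SNL and SNL+GPN nerve, against 8.31, 7.33 and 7.21 in Naive, Naive+GPN and Sham nerve, and 0 of 25 tested passed (12 were lower with the arrays as deposited). The muscle mean of the SNL+GPN pool was close to those of the Naive+GPN and Sham pools, and that of the SNL pool was the lowest. With the muscle mean as covariate the Cryab change was -1.87 and no longer passed (adjusted p = 0.0730). The 8 fat markers averaged 6.68 and 7.11 in ligated against 7.65 to 8.11 in unligated nerve, with 4 of 7 tested lower.

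Of the 11 Schwann cell and myelin markers, 4 were lower and 0 higher in ligated nerve (median log2 change -0.81, against 0.02 over all probe sets tested). Their mean was 8.80 and 8.76 in SNL and SNL+GPN nerve, against 9.83, 9.90 and 9.46 in the unligated nerve. Prx, which stabilises myelin around axons, had 1105 ± 24.1 in ligated and 3619 ± 235 in unligated nerve (SD, n = 2 and n = 3; log2 change -1.70, limma adjusted p = 0.0030). Cldn19, a tight junction protein of myelinating Schwann cells, changed by -1.95 (adjusted p = 0.0070). How much of the Cryab difference goes with any of these cell types was not tested beyond the muscle covariate. Without the SNL pool the Cryab change was -1.92 with an adjusted p of 0.0649, in a comparison where 0 of 16466 probe sets passed.

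**Figure D3:**
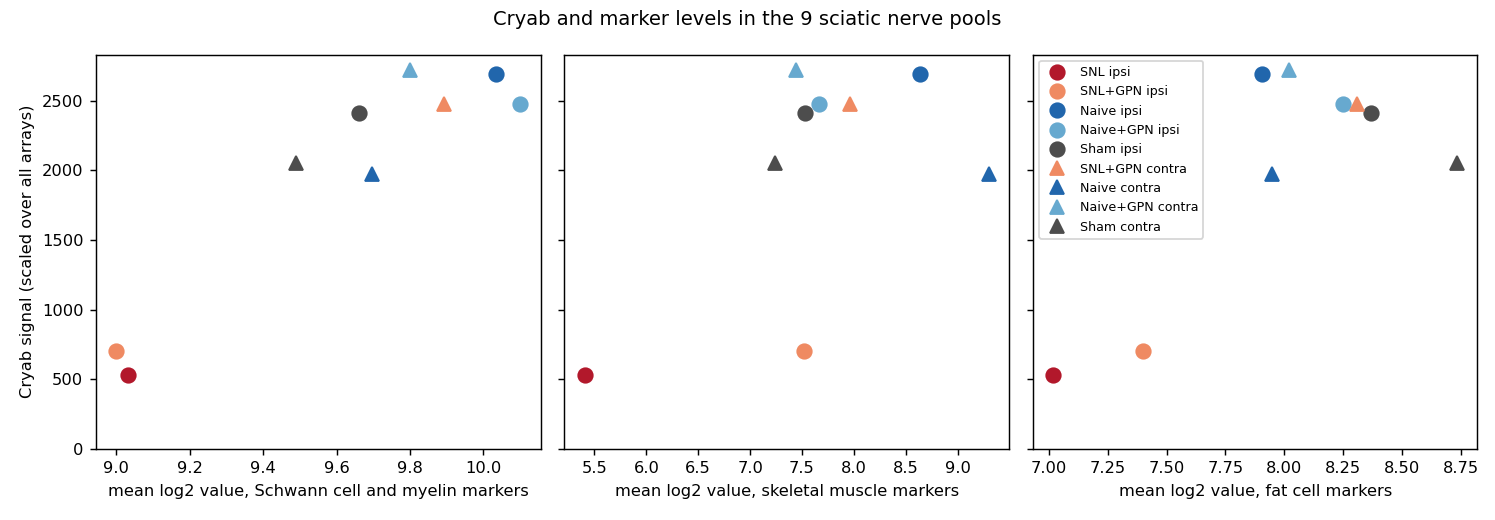
Cryab signal (vertical axis, linear, scaled over all arrays) against the mean log2 value of Schwann cell and myelin, skeletal muscle and fat cell markers (horizontal axes) in the 9 sciatic nerve pools. Circles are ipsilateral and triangles contralateral pools, coloured by treatment. The 2 ligated ipsilateral pools are lowest in Cryab and in Schwann cell and fat markers. In muscle markers the ipsilateral SNL+GPN pool at 7.52 lies close to the Sham pool at 7.53.

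Some other chaperones were lower in the same nerve pools. Hspb2, a small heat shock protein whose gene lies next to Cryab in mammals, was 72.8 ± 5.47 in ligated and 176 ± 45.6 in unligated nerve (SD, n = 2 and n = 3; log2 change -1.18, limma adjusted p = 0.0358), and it was the 1 of 5 other small heat shock proteins to pass. Hspa1b/Hspa1a was 153 and 167 in SNL and SNL+GPN nerve, against 341, 208 and 452 in Naive, Naive+GPN and Sham nerve. The groups did not overlap, but the unligated pools spread widely and the change of -0.97 (SE 0.31) did not pass (adjusted p = 0.138).

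A separate probe set annotated to Hspa1a alone was lower in ligated nerve, at 81.3 ± 2.16 against 211 ± 73.0 in unligated nerve (log2 change -1.26, limma adjusted p = 0.0463). The Gapdh 3' to 5' ratio of the same pools was 1.92 and 1.61 in SNL and SNL+GPN nerve, against 7.38, 1.60 and 3.80 in Naive, Naive+GPN and Sham nerve. Among the unligated pools Naive+GPN was lowest in both the ratio and the Hspa1b/Hspa1a signal, and the part of RNA quality in these values was not tested. Hspa1b/Hspa1a passed without the Naive+GPN pool (-1.27, adjusted p = 0.0404) and with 1 spread estimated over all compartments (-0.97, adjusted p = 0.0017).

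The remaining members did not pass in the ipsilateral nerve. Hmox1 was 56.1 and 52.2 in ligated against 87.3, 76.9 and 71.9 in unligated pools, with no overlap (-0.49, limma adjusted p = 0.185). Hspe1 was 251 and 208 in ligated against 270, 284 and 305 in unligated pools, also without overlap (-0.32, adjusted p = 0.373). Hspb1 was 222 and 360 in ligated against 385, 288 and 534 in unligated nerve, with overlap (-0.46, adjusted p = 0.478). Hspa5, Hspa8/Haus8l2 and Hspd1 overlapped between the groups, with changes of 0.16, 0.11 and -0.20. In the ipsilateral nerve 1 of 8 genes was thus called, where 4.87% of 16925 probe sets were (2.25% higher and 2.62% lower), and 4 of 8 had groups that did not overlap, where 38.7% of probe sets did not.

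In the ganglia of the tied nerves the direction differed between chaperones. Hspb1 had signals of 2186 and 2728 in the SNL and SNL+GPN pools of the ipsilateral L6 DRG, against 1149, 1318 and 1346 in the Naive, Naive+GPN and Sham pools. Both ligated pools lay above all unligated ones. The change was 0.94 on the log2 scale, 1.92-fold (SE 0.16, limma adjusted p = 0.0132).

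Probe set 3 of Hspb1 had 1413 and 1481 in ligated against 558, 521 and 594 in unligated L6 DRG pools, a change of 1.37 (adjusted p = 0.0023), and probe set 2 changed by 0.66 without passing (adjusted p = 0.0591). Probe sets 4 and 5 changed by 0.00 and 0.23. Across the 52 pools, the Pearson r with probe set 1 was 0.92 and 0.94 for probe sets 2 and 3 and -0.31 and -0.42 for probe sets 4 and 5. After centring on the compartment means it was 0.38, 0.48, -0.15 and 0.37 for probe sets 2 to 5.

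In the ipsilateral L5 DRG Hspb1 was 2338 and 2649 in SNL and SNL+GPN pools, against 1741, 1942 and 1927 in Naive, Naive+GPN and Sham pools. The groups did not overlap, but the change was smaller than in L6, at 0.41 (SE 0.10, 1.33-fold, limma adjusted p = 0.0365). Probe set 3 gave 0.57 (adjusted p = 0.0197), and probe sets 2, 4 and 5 did not pass. The L5 call was lost in 10 of 13 alternatives, among them the removal of any 1 pool (adjusted p from 0.0704 to 0.167) and the arrays divided by their medians (0.20, adjusted p = 0.294). The L6 call was lost in 3 of 13, which were the deposited scaling (0.68, adjusted p = 0.991), no SNL+GPN pool (0.78, adjusted p = 0.0775) and no Naive pool (0.87, adjusted p = 0.0543).

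The spared and contralateral ganglia give the range of Hspb1 without a tied nerve. In the ipsilateral L4 DRG it was 1924 and 1676 in ligated against 1271, 1544 and 1778 in unligated pools, with overlap (0.24, adjusted p = 0.531). In the contralateral L5 DRG it was 1642 and 2189 in ligated against 1663 and 2322 in Naive and Sham pools, a wide spread. In the contralateral L6 DRG it was 1241 and 1464 in ligated against 1260 and 1486 in Naive+GPN and Sham pools. The contralateral L4 DRG had 1504 and 1671 in ligated against 1700, 1653 and 2034 in Naive, Naive+GPN and Sham pools. The groups overlapped in each. Each compartment was scaled on its own. Over all arrays the L5 pools spanned 1391 to 1961 on the contralateral and 1488 to 2307 on the ipsilateral side. The L6 change minus the L4 change was 0.70 (SE 0.27, limma adjusted p = 0.277), and the L6 ipsilateral minus contralateral change was 0.89 (SE 0.31, adjusted p = 0.279). A difference between ganglia or sides was therefore not shown for Hspb1.

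Members of the cytosolic and the mitochondrial folding machinery went the other way in L5. Hspa8/Haus8l2 was 2784 and 2911 in SNL and SNL+GPN pools of the ipsilateral L5 DRG, against 3622, 3666 and 3604 in Naive, Naive+GPN and Sham pools. The 3 unligated pools were close together and both ligated pools lay below them. The change was -0.35 (SE 0.08, 1.27-fold lower, limma adjusted p = 0.0300), and probe set 2 gave -0.52 (adjusted p = 0.0320). The call was lost without any 1 pool (adjusted p from 0.0526 to 0.145). In the L6 DRG the signals were 2121 and 2567 in ligated against 2773, 2844 and 3380 in unligated pools, again without overlap, and the change of -0.36 did not pass (adjusted p = 0.222).

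Hspd1 was 461 and 526 in SNL and SNL+GPN pools of the L5 DRG, against 710, 844 and 694 in Naive, Naive+GPN and Sham pools. The groups were apart, and the change was -0.59 (SE 0.13, 1.51-fold lower, limma adjusted p = 0.0222). Probe set 2 changed by -0.39 and did not pass (adjusted p = 0.113). The call was lost without the SNL pool (adjusted p = 0.140), without SNL+GPN (0.0511) and without Naive+GPN (0.0623). In the L6 DRG it was 499 and 412 in ligated against 615, 515 and 523 in unligated pools, apart by a narrow margin, with a change of -0.27 (adjusted p = 0.364).

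Hspe1, whose promoter window overlaps that of Hspd1, was 395 and 421 in ligated against 470, 524 and 508 in unligated L5 DRG pools. The groups did not overlap and the change of -0.29 did not pass (adjusted p = 0.112), except with arrays divided by their medians (-0.54, adjusted p = 0.0270). Hmox1 was 75.9 and 58.7 in ligated against 91.2, 88.8 and 93.8 in unligated L5 DRG pools, also apart and not called (-0.42, adjusted p = 0.102). In L6 its signals were 66.0 and 65.3 in ligated against 36.9, 74.2 and 45.2 in unligated pools, with overlap (0.36, adjusted p = 0.482). Hspa5 was 418 and 401 in ligated against 412, 423 and 465 in unligated L5 DRG pools, and overlapped. Hspa1b/Hspa1a was 164 and 187 in ligated against 167, 167 and 186 in unligated pools, and overlapped as well.

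Cryab in the L5 DRG was 523 and 763 in ligated against 1270, 702 and 668 in unligated pools. The Naive pool stood apart from the other 2 unligated pools, and the groups overlapped.

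In the L5 DRG 3 of 8 genes were called, 1 higher and 2 lower, where 15.6% of 16746 probe sets were called (6.75% higher and 8.88% lower). The groups were apart for 5 of 8, where 49.5% of probe sets were. In the L6 DRG 1 of 8 was called, where 8.59% of 16901 probe sets were (4.37% higher and 4.22% lower), and the groups were apart for 3 of 8, where 42.2% were. The median change of the 8 genes was -0.32 in L5 and -0.10 in L6, beside -0.00 over all probe sets in each. With the arrays as deposited the median of all probe sets shifted by -0.24 in L5, -0.28 in L6 and 0.33 in the ipsilateral nerve. The calls then split into 469 higher and 2609 lower in L5 (1130 and 1487 after quantile scaling), 24 and 62 in L6 (738 and 713), and 420 and 175 in the nerve (380 and 444).

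The cell type markers of these ganglia moved too. Of the macrophage markers 12 of 14 tested were higher in the L5 DRG and 12 of 15 in the L6 DRG, with means of 7.14 to 7.26 in ligated against 5.74 to 6.17 in unligated L5 pools. Of the neuron markers 7 of 14 were lower and 1 higher in L5, with means of 9.71 and 9.91 in ligated against 10.25 to 10.36 in unligated pools, and 7 of 15 were lower and 1 higher in L6. Of the fibroblast and perineurium markers 7 of 12 were higher in L5, and of the satellite glia and astrocyte markers 2 of 8 were lower (median -0.50). Of the skeletal muscle markers 0 of 26 passed in L5 (median 1.26), with means of 6.37 and 7.68 in ligated against 4.98 to 7.04 in unligated pools. With the muscle mean as covariate the L5 changes were 0.43 for Hspb1 (adjusted p = 0.0657), -0.37 for Hspa8/Haus8l2 (adjusted p = 0.0525) and -0.63 for Hspd1 (adjusted p = 0.0430), of which the last alone still passed. The Gapdh 3' to 5' ratio was 1.01 and 1.05 in ligated against 1.25, 1.13 and 1.26 in Naive, Naive+GPN and Sham L5 DRG. The part of the ratio and of the markers other than muscle in these changes was not tested.

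**Figure D4:**
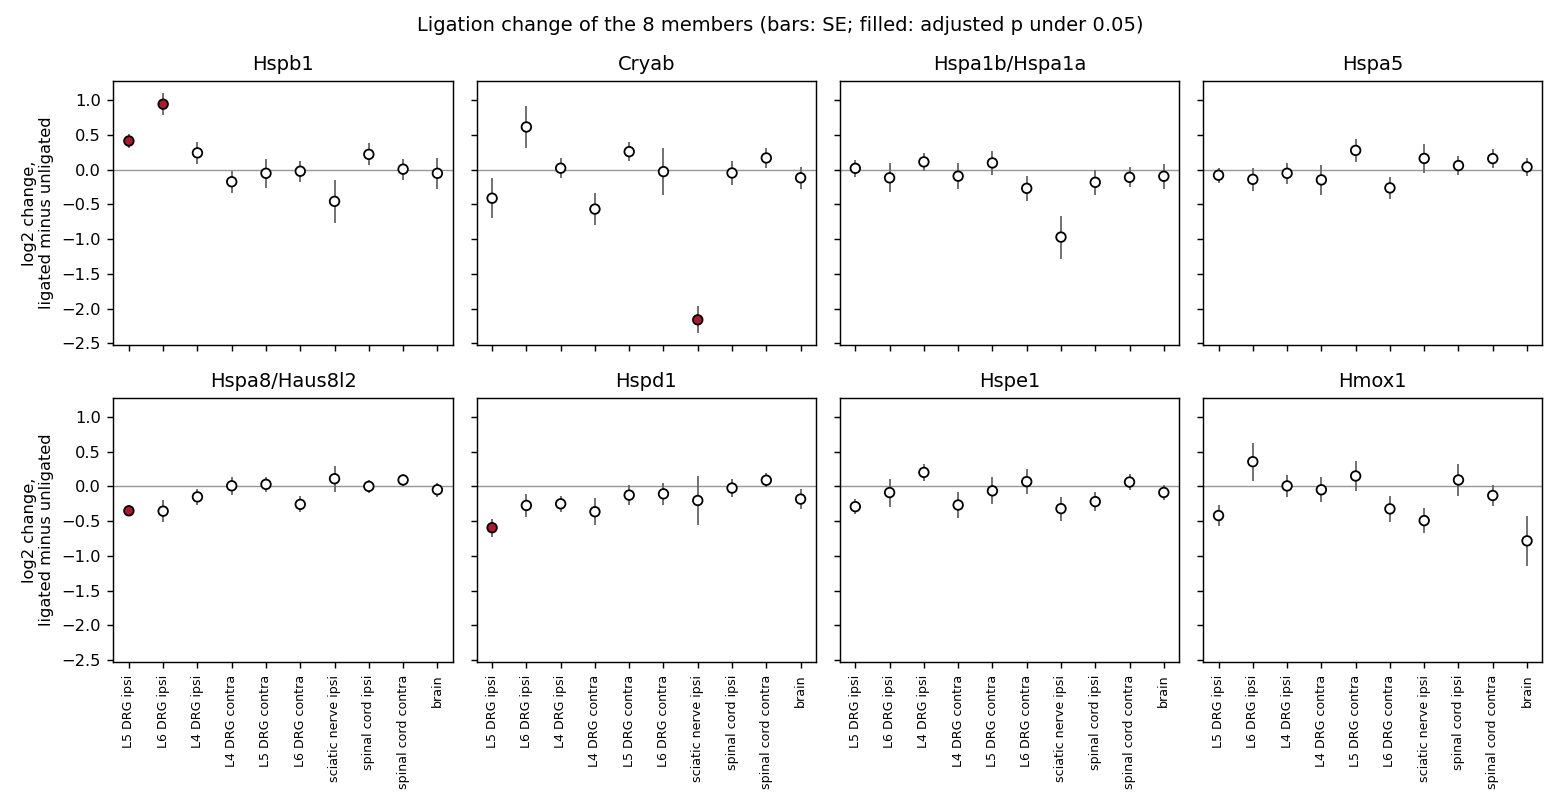
Log2 change of probe set 1 of each gene, ligated minus unligated pools, in the 10 compartments tested. Bars are standard errors of the limma fit, and filled points passed an adjusted p of 0.05. Calls are limited to Hspb1 in the L5 and L6 DRG, Hspa8/Haus8l2 and Hspd1 in the L5 DRG, and Cryab in the ipsilateral sciatic nerve.

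Away from the tied nerves no member was called. In the ipsilateral L4 DRG 0 of 8 passed in limma and 0 had an unadjusted p under 0.05, where 0.0418% of probe sets were called. In the contralateral L4, L5 and L6 DRG 0 passed, with 1, 0 and 0 genes at an unadjusted p under 0.05, and with 0%, 0.00612% and 0.0729% of probe sets called. In the 2 spinal cord sides and the brain 0 of 8 passed and 0 had an unadjusted p under 0.05, where 0% of probe sets were called. Changes in the ipsilateral cord lay between -0.22 and 0.22. In the brain they lay between -0.78 and 0.04, and the lowest was that of Hmox1, which was 9.90 in SNL brain and 33.4 in SNL+GPN brain, against 36.2, 41.6 and 33.3 in Naive, Naive+GPN and Sham brain. The SNL pool alone was low there.

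Differences in change between compartments were not called either. For L5 minus L4 DRG, L6 minus L4 DRG, L5 ipsilateral minus contralateral DRG and L6 ipsilateral minus contralateral DRG, 0 of 8 genes passed in limma, with 1, 1, 1 and 2 at an unadjusted p under 0.05 (0%, 0.0167%, 0% and 0% of probe sets called). For nerve minus L5 DRG 0 of 8 passed, with 3 at an unadjusted p under 0.05 and 1.89% of probe sets called. The lowest adjusted p among them was that of Cryab, given above.

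Several HSP70 and HSP90 chaperones and partners were lower in the L5 DRG, where 8.88% of all probe sets were lower and 6.75% higher. There 7 of 14 neuron markers were lower too (median -0.53), and their part in the list counts was not tested. Of the HSP70 chaperones and partners other than the members, 8 of 24 tested were lower and 0 higher (median -0.25, beside -0.00 over all probe sets). Dnaja3, a mitochondrial HSP40, was 14.5 in ligated and 56.3 in unligated pools (means, n = 2 and n = 3; -1.62, limma adjusted p = 0.0047). Hsph1 (HSP110), which recharges HSP70 with nucleotide, changed by -0.77 (adjusted p = 0.0167), and Dnaja4 by -0.76 (adjusted p = 0.0087).

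Of the HSP90 chaperones and partners 4 of 12 were lower and 0 higher (median -0.32). Fkbp4, an HSP90 co-chaperone of steroid receptors, was 305 in ligated and 631 in unligated L5 DRG (-1.04, limma adjusted p = 0.0033), and the phosphatase Ppp5c changed by -1.03 (adjusted p = 0.0127) and Ahsa1 by -0.48 (adjusted p = 0.0305). Of the chaperonins and prefoldins 1 of 13 was lower, the prefoldin subunit Pfdn2 (-0.57, adjusted p = 0.0261). Of 5 other small heat shock proteins and 2 heat shock factors tested, 0 passed in limma. With the arrays as deposited and with arrays divided by their medians, the same 8 and 4 genes were again lower. Both scalings move all probe sets down in L5, by a median of -0.24 and -0.09, with 660 higher and 2055 lower calls under the second.

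Calls in the endoplasmic reticulum list were few and near the 6.75% of all probe sets. Of 26 endoplasmic reticulum chaperones and unfolded protein response genes 2 were higher in the L5 DRG, Serpinh1 (HSP47, the collagen chaperone; 572 in ligated and 343 in unligated pools, 0.74, limma adjusted p = 0.0222) and Sdf2l1 (0.68, adjusted p = 0.0407). Both calls were lost under the other 2 scalings, and Serpinh1 rose beside the fibroblast markers given above, a link that was not tested. Of 15 haem and iron genes tested in L5, 1 was higher and 1 lower, where 6.75% of all probe sets were higher and 8.88% lower. The higher one, ceruloplasmin (Cp), a ferroxidase, was 165 in ligated and 49.0 in unligated L5 pools (1.59, limma adjusted p = 0.0132). The lower one, the constitutive heme oxygenase Hmox2, was 84.5 in ligated and 153 in unligated pools (-0.82, adjusted p = 0.0070).

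Of 22 genes of the NRF2 and oxidative stress list, which holds the pathway known to induce Hmox1, 5 were lower and 2 higher in the L5 DRG. Nqo1 changed by -1.31 (limma adjusted p = 0.0052), the metallothionein Mt3 by -1.28 (adjusted p = 0.0019), Gsta1 by -1.04 (adjusted p = 0.0410), the mitochondrial superoxide dismutase Sod2 by 0.64 (adjusted p = 0.0480) and Gpx1 by 0.62 (adjusted p = 0.0203). The 2 higher calls were lost under the other 2 scalings.

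In the L6 DRG, where 4.37% of all probe sets were higher and 4.22% lower, the calls were 2 of 24 HSP70 partners lower, 1 of 12 HSP90 partners lower, 1 of 13 chaperonins higher, 0 of 26 endoplasmic reticulum genes, 1 of 16 haem genes higher, and 1 lower and 3 higher of 22 NRF2 genes. With the arrays as deposited 0 genes of these lists passed in the L6 DRG. In the nerve the calls of Hspb2, Hspa1a, Hspa12a and Pfdn2 were lost with that scaling, while Cp was again higher and Mt3 and Me1 were again lower. In the ipsilateral nerve 2.25% of all probe sets were higher and 2.62% lower. There 2 of 25 HSP70 partners were lower (Hspa1a, given above, and Hspa12a at -1.03, limma adjusted p = 0.0172). Of the HSP90 partners 0 of 13 passed, and of the chaperonins 1 of 13 was lower, Pfdn2 (-0.77). Cp was higher there, at 323 in ligated and 96.8 in unligated nerve (1.70, adjusted p = 0.0038). Of the NRF2 list 3 of 22 were lower and 0 higher: Mt3 at 143 in ligated and 1242 in unligated nerve (-3.05, adjusted p = 0.0022), Me1 (-1.81, adjusted p = 0.0043) and Nqo1 (-1.42, adjusted p = 0.0152).

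**Figure D5:**
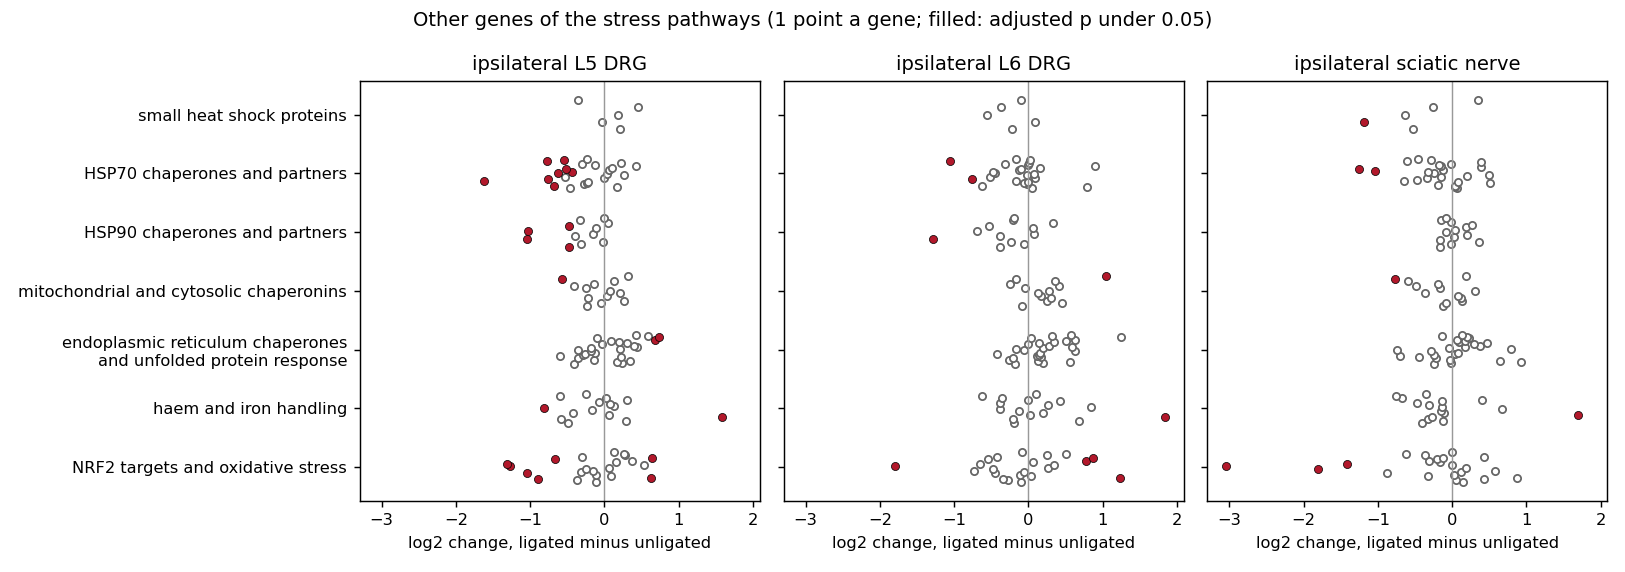
Log2 change, ligated minus unligated pools, of the other genes of 7 stress pathway lists in 3 ipsilateral compartments, with 1 point for each gene and filled points past an adjusted p of 0.05. In the L5 DRG the 8 and 4 calls in the HSP70 and HSP90 lists all lie below 0, and in the nerve Cp lies at 1.70 and Mt3 at -3.05.

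Gabapentin gave no call among these genes. Over the 8 compartments with all 5 treatments, with ligation as covariate, pools with gabapentin differed from those without by -0.10 (Hspa5) to 0.13 (Hmox1) on the log2 scale, with SEs of 0.08 to 0.10. In limma 0 of 8 genes passed, 0 had an unadjusted p under 0.05, and 0% of 20370 probe sets were called. In single compartments 0 of 64 member values passed (lowest adjusted p = 0.957), where 1 probe set of 134143, or 0.000745%, did. Single values ranged from -0.52 to 0.70.

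Surgery without ligation can be described only as 1 Sham pool against 1 Naive pool in each compartment, with no test. Sham exceeded Naive in 9 of 10 compartments for Hspa5 (median log2 difference 0.33, highest 0.75 in contralateral nerve) and in 8 of 10 for Hspa1b/Hspa1a (median 0.30, highest 1.00 in contralateral nerve). SNL lay below Sham in 9 of 10 compartments for Hspa5, Hspa1b/Hspa1a, Hspa8/Haus8l2 and Hspd1, with medians of -0.12, -0.21, -0.17 and -0.34. Both comparisons share the Sham pools. The 10 compartments come from the same treatment groups and are not independent repeats. How many of all probe sets give such counts was not determined, so the counts are no result about these genes. Hspb1 in the L6 DRG was also above Sham in the SNL pool, by 0.70, and Cryab in the ipsilateral nerve was below it by -2.34.

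The genes whose levels ran most like those of the members, after centring each compartment on its mean, were found among 9809 genes over 52 pools by Pearson's r, as a description. For Cryab they were Cyb5r2 (r = 0.90), Psat1 (0.86) and Plaat3 (0.85). For Hspb1 they were Cacna2d1, the calcium channel subunit that gabapentin binds (0.75), Tspo (0.66) and Mmp16 (0.66). For Hspd1 they were Acsl5 (0.78), Ppid (0.75) and Ufsp2 (0.73), and for Hspa8/Haus8l2 they were Abca7 (0.74), Gsk3a (0.72) and Cpm (0.70).

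For Hspa1b/Hspa1a they were Ppp1r15b (0.72), LOC100910558 (0.70) and Rbp4 (0.67), and for Hspa5 they were Ddb2 (0.63), Nme1 (0.62) and Cpe (0.62). For Hspe1 they were Alas1, which catalyses the first step of haem synthesis (0.66), Hapstr1 (0.64) and C18h18orf32 (0.64), and for Hmox1 they were Plekhf1 (0.62), Gss (0.53) and P2ry14 (0.52). Without centring, where tissue sets the order, Hspb1 ran with Sncg (0.96), a synuclein of sensory neurons, and Cryab with Ndrg1 (0.96), a gene of myelinating Schwann cells. Pools of 1 compartment share their normalisation. Among the 28 pairs of members the highest centred r was 0.54, between Hspa8/Haus8l2 and Hspd1.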

How the data were processed

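Values were linear probe set intensity as deposited by the authors, made with MAS5 per the submitters' processing notes. The sources used here give no version or scaling target. The 156 arrays came from 52 pools on arrays A, B and C. The 26379 probe sets, less 177 controls, were named through GEO's platform annotation, with symbols updated to RefSeq (GRCr8). The 8 genes and all lists were chosen with earlier results of these data known. No column went unused.

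Arrays of each set were quantile normalised within a compartment, or over all 52 pools for tissues. Values were log2(signal + pseudocount), with pseudocounts of 5.8, 4.5 and 6.2 (20th percentile of A, B and C), so folds understate changes of dim genes. Probe sets above the 40th percentile of their array in at least 2 samples were tested with limma 3.58.1 (R 4.3.3; eBayes with trend, two-sided), adjusted by Benjamini-Hochberg over all of them, at a threshold of 0.05. Of the 22 member probe sets, 17 to 20 passed this filter in a ligation comparison, and probe set 1 of each gene did in all.

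Tissues were compared over 3 treatment means each. Each treatment had 1 pool in a compartment, so p-values measure the spread between pools of different treatments. The number of arrays limits the precision. Alternatives changed the scaling, pseudocount, filter, probe set choice, spread, covariate and samples. Named genes were all member probe sets, and for each list up to 3 higher and 3 lower calls of largest size in L5 DRG and nerve, with counts elsewhere. For likeness, the 3 most alike genes of each member were taken. The fits were tested on simulated data. Protein identities between members were not analysed here.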

Additional observations from a re-analysis of the deposited data

Results flagged for a closer look

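Cryab in the Naive pool of the ipsilateral L5 DRG was the 1 of 40 gene and tissue groups of unligated pools in which a single pool lay far from the rest. Its signal, scaled over all arrays, was 1062, and the next highest of the 5 unligated L5 DRG pools of both sides was 580. Such a gap arises by chance in about 1 in 20 groups. The pool belongs to the comparison of Cryab in the L5 DRG, which did not pass with it (-0.41).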

How the results depend on the processing

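Of 152 values for the 8 genes, 17 were called. Under the alternatives with a test, which gave 185 values for these, 144 stayed called, 41 did not and 0 changed sign, and of 1527 values of results not called 14 became called and 134 changed sign. The median over all probe sets of a gene, which has no test, gave 5 more. The causes were not tested. In the L5 DRG the 3 genes called became 1 with no filter on dim probe sets and 5 probe sets when all probe sets were counted, and 0 to 1 when 1 pool was left out. In the L6 DRG the 1 gene became 0 with the deposited scaling, 2 with 1 spread over compartments, 2 over all probe sets, and 0 to 1 without 1 pool. In the ipsilateral nerve the 1 gene became 2 with 1 spread, 2 over all probe sets, 0 with muscle markers as covariate, and 0 to 2 without 1 pool. Nerve minus L5 DRG gave 1 in place of 0 with a pseudocount of 32, and 0 to 1 without 1 pool. Spinal cord minus DRG gave 1 in place of 2 with the deposited scaling, 1 with arrays divided by their medians, 4 with treatment as a block, 1 with 1 compartment a tissue, and 1 to 3 without 1 treatment. Leaving out 1 unligated pool changed the share of all probe sets called as well. In L5 it was 15.6% with all pools and 8.33% to 11.6% with 1 left out. In L6 it was 8.59% and then 4.27% to 8.67%, and in the nerve 4.87% and then 2.45% to 6.11%. In L6 and in the nerve the share rose without the Sham pool. It fell without a ligated pool, a fit in which the lone ligated pool is assumed to vary like the unligated ones. Cryab in the L5 DRG passed only with the muscle covariate (-0.92, adjusted p = 0.0103). For ligated against unligated pools, no paired analysis was possible because each treatment had 1 pool in a compartment. Between tissues, treatment as a block gave the calls of Hspa5, Cryab and Hspa1b/Hspa1a given with the tissue levels and ended none of the 12 calls.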
